A study of Homo sapiens with 8 samples.

Results

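Genes of cholesterol and fatty acid synthesis were examined as a group in 8 xenograft tumours. The group was a named list of 40 genes, taken by symbol from the annotation of the array, with the brightest transcript cluster (the probe group that reports a gene) used for each. 36 of the 40 had a named cluster, 1 each, out of 17709 clusters with 1 gene symbol. They were 18 enzymes of the sterol branch, 5 genes of sterol sensing and transport, and 13 genes of the fatty acid branch. The sterol enzyme FDFT1, the elongase ELOVL1, the desaturase FADS1 and the acyl-CoA synthetase ACSL3 are not analysed here.

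The tumours grew in nude mice, which lack T cells, from SK-OV-3, an established human ovarian cancer cell line. In 4 tumours the cells carried pIND_BORA, from which BORA is overexpressed; the BORA protein helps the kinase Aurora A to switch on PLK1 before mitosis. In the other 4 tumours (EV) the cells carried pIND_EV, the same kind of vector without an insert. Total RNA from each tumour was read on 1 Affymetrix expression array. The sources used here give no clone number for the cell lines, no inducer, no implantation site and no mouse age, and do not say whether each tumour came from a mouse of its own, so the p-values measure the spread between these samples only. Each tumour is a mixture of human cancer cells and mouse host cells, and human probes may read mouse RNA in part.

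Cholesterol is built from acetyl-CoA. The mevalonate steps make isoprenoid units, farnesyl pyrophosphate is joined into squalene, and squalene is closed into lanosterol and trimmed to cholesterol. Fatty acids are built from the same acetyl-CoA by way of malonyl-CoA and palmitate, and are then lengthened and desaturated. Both branches are switched on by the SREBP transcription factors, which SREBF1 and SREBF2 encode. SCAP carries SREBPs out of the endoplasmic reticulum when sterols are low, and INSIG1 holds them there when sterols are high. SREBP-1 is known chiefly for fatty acid genes and SREBP-2 for sterol genes. Many tumours make fatty acids and sterols of their own.

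The promoters of 4 genes are shown because SREBF1, HSD17B7 and LSS are members whose BORA and EV tumours did not overlap in signal (below), and because SREBF2 holds the sterol regulatory element that SREBPs bind. Each window runs from 250 bases before to 50 bases after the RefSeq start of the gene, in the GRCh38.p14 assembly, and is written 5′ to 3′ on the strand of the gene. Capitals mark exact matches, on either strand, to 3 motifs. These were TCACCCCAC (a sterol regulatory element), CCAAT (the box bound by NF-Y, which reads ATTGG on the other strand) and CACGTG (the E-box). The windows lie at chr17:17836937-17837236 (minus strand, SREBF1), chr1:162790452-162790751 (plus strand, HSD17B7), chr21:46228725-46229024 (minus strand, LSS) and chr22:41832855-41833154 (plus strand, SREBF2).
SREBF1: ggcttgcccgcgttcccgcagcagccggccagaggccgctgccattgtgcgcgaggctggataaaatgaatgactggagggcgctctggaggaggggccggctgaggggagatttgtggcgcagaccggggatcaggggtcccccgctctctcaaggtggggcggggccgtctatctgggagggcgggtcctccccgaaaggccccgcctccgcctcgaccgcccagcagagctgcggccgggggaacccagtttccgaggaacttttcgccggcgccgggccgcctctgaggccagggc
HSD17B7: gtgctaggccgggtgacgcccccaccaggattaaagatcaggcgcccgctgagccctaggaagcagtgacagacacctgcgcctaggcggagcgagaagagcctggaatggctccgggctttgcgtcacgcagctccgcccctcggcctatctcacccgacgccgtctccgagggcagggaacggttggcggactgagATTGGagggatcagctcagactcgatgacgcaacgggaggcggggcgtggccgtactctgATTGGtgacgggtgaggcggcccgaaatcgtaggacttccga
LSS: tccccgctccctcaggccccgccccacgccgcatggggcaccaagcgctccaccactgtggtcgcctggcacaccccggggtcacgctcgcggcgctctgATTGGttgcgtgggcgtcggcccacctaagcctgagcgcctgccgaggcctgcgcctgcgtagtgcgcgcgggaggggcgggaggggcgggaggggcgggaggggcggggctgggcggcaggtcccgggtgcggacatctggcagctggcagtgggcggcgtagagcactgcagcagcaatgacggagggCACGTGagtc
SREBF2: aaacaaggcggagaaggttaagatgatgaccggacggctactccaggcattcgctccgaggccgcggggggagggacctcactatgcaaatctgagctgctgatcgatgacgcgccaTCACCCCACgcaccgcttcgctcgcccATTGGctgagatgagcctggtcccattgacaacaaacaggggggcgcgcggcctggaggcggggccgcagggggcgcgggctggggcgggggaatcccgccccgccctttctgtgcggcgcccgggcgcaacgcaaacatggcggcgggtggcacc

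The SREBF1 window held none of the 3 motifs. It was the 1 window searched for SREBF1, so any other start of the gene was not covered. The HSD17B7 window held 2 CCAAT boxes, and the LSS window held 1 CCAAT box and, near its downstream end, 1 E-box. SREBF2 held 1 sterol regulatory element and 1 CCAAT box. Among the 36 measured genes, 33 had at least 1 window in the RefSeq table, and a gene with several windows was counted once. The CCAAT box was found in 27 of the 33 (81.8%), against 42.3% of the 14250 genes on the array with a window. It was found in 14 of 16 sterol enzymes (87.5%), in 3 of 5 sensing genes and in 10 of 12 fatty acid genes (83.3%). TCACCCCAC was found in SREBF2 and ACSL1 alone (6.06%), against 0.568% of the genes on the array. The E-box was found in 5 of the 33 (15.2%), against 10.8%. These are matches of letters, and no match says only that these letters are not in the window.

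The signals are the authors' deposited values, read as log2. Array medians lay between 6.96 and 7.07. The BORA transcript had 12.57, 12.55, 12.91 and 13.00 in the BORA tumours, against 6.16, 6.15, 6.89 and 7.32 in the EV tumours, all 4 of which were below the background level. That level was the 95th percentile of each array's negative control probes, 7.62 to 8.24. EV replicate 1 stood apart from the other arrays, with correlations over all clusters of 0.943 to 0.954, against 0.981 to 0.992 among the other 7. It held squamous epithelium markers at a mean of 12.8, with 7 of 9 above background, whereas the mean was 5.63 to 6.18 in BORA tumours and 5.84 to 6.31 in EV replicates 2 to 4. Its mitosis genes averaged 8.60, against 10.0 to 10.9 in BORA tumours and 10.2 to 10.5 in the other EV tumours. In every tumour 8 or 9 of the 9 measured ovarian carcinoma markers were above background. Of the markers of lipid-rich cells, 0 of 8 sebocyte genes were above background in any array, and of 7 adipocyte genes only FABP4 was, in EV replicate 1. Differences are therefore given over all 8 arrays and with EV replicate 1 left out, over 7. Of the 36 genes, 26 were above background in all 8 arrays, 5 in some arrays and 5 in none.

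None of the 36 genes passed the test in either comparison (limma over all 17709 clusters, Benjamini-Hochberg adjusted p under 0.05). Over 8 arrays 0 were called higher in BORA tumours, where 0.102% of all clusters were, and 0 were called lower, where 0% of all clusters were. Over 7 arrays 0 were called higher, against 0.435% of all clusters, and 0 lower, against 0.0791%. At an unadjusted p under 0.05, 5 of the 36 were higher over 8 arrays, against 7.37% of all clusters, and 2 were lower, against 7.17%. Over 7 arrays 4 were higher, against 7.7% of all clusters, and 2 lower, against 7.62%. Clusters averaging above background were less evenly split. Of these 7217, 829 were higher and 200 lower over 8 arrays, and 853 and 255 over 7. Among the 28 members averaging above background, 4 were higher and 2 lower over 8 arrays, and 3 and 2 over 7. In 3 genes (ACAT2, HSD17B7 and SREBF1) all BORA tumours lay above all EV tumours, as they did in 4.45% of all clusters. In 1 gene, LSS, all lay below, as they did in 4.91% of all clusters. Of the 7217 clusters averaging above background, 500 had all BORA tumours above and 122 all below. Of the 28 members averaging above background, 2 and 1 did. These shares rest on 1 to 5 genes each. The 95% interval of the difference lay within 1 log2 unit of 0 in 25 of 36 genes over 8 arrays and in 30 of 36 over 7.

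**Figure D1:**
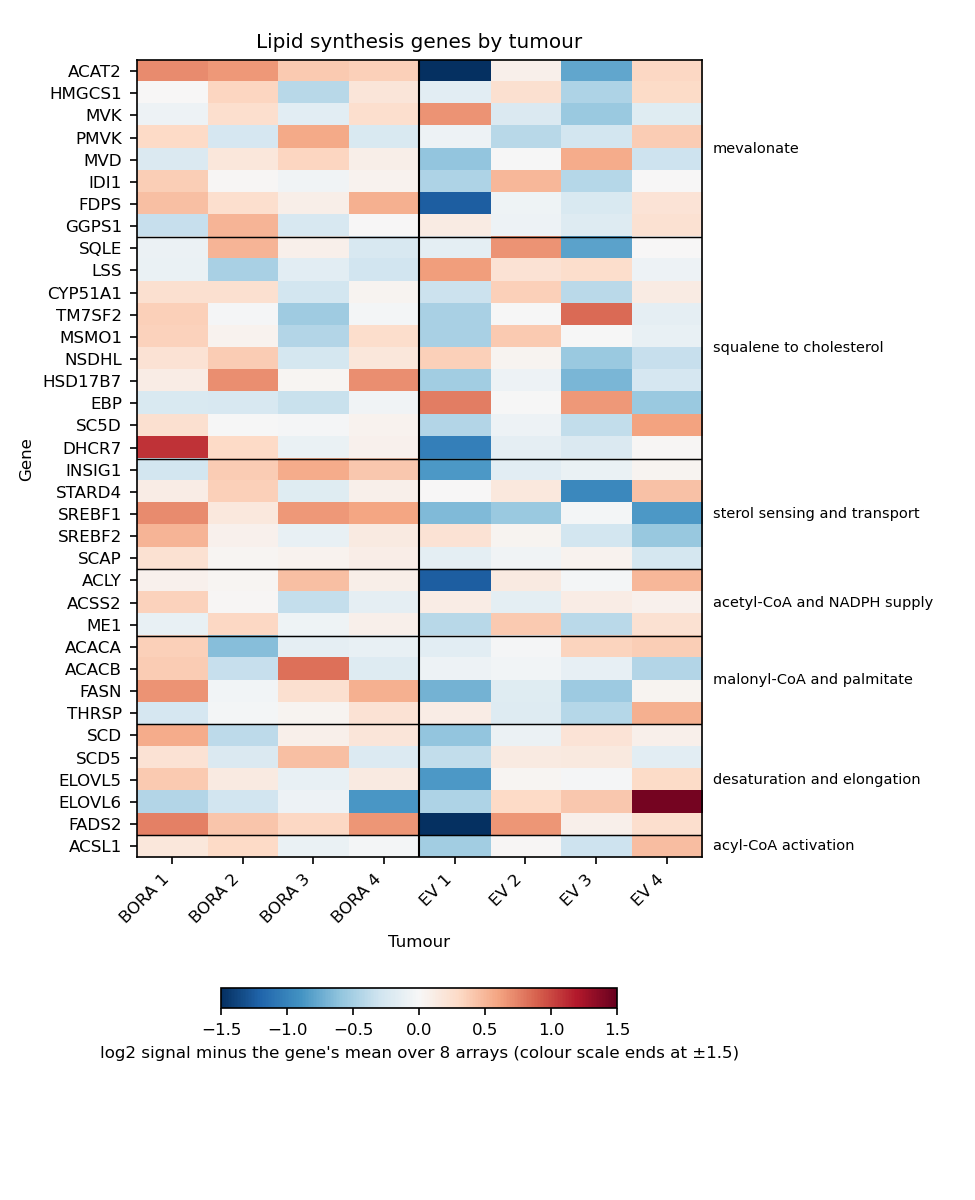
Signal of the 36 measured genes (rows, grouped by role) in 4 BORA and 4 EV tumours (columns), as the log2 signal minus the mean of the gene over the 8 arrays; the colour scale ends at 1.5 either side of 0. EV replicate 1 is among the darkest blue for ACAT2, FDPS, ACLY and FADS2, and ELOVL6 in EV replicate 4 is the darkest red.

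Among the regulators, SREBF1 had the smallest adjusted p of the 36 genes. It had signals of 10.74, 10.19, 10.68 and 10.61 in the BORA tumours, against 9.36, 9.46, 9.99 and 9.16 in the EV tumours. The lowest BORA tumour lay above the highest EV tumour. The difference, BORA minus EV, was 1.06 ± 0.21 on the log2 scale (SE, n = 4 each), a 2.09-fold ratio, with an adjusted p of 0.129. Without EV replicate 1 it was 1.02 ± 0.22, with an adjusted p of 0.0801. SREBF1 therefore stayed short of the threshold in both, although its interval over 8 arrays, 0.59 to 1.53, did not reach 0. Some markers of cell types had groups that stood apart as well. PECAM1 had 7.86, 8.24, 7.78 and 8.55 in BORA tumours, against 5.90, 6.37, 6.40 and 7.54 in EV tumours. CDH5, like PECAM1 an endothelial junction protein, had 8.30, 8.18, 7.03 and 7.38 in BORA tumours, against 4.89, 6.56, 4.48 and 5.86 in EV tumours. The groups overlapped for neither gene, and neither was called. PECAM1 and CDH5 were below background in all EV tumours. The other 5 of 7 endothelial markers, VWF, KDR, TEK, EMCN and CLDN5, were below background in all 8 tumours, with differences of -0.49 to -0.06 over 8 arrays. Among 8 leukocyte markers, 7 had a difference below 0 over 8 arrays and 0 were called. PTPRC, the leukocyte antigen CD45, had 10.83, 9.68, 10.96 and 10.09 in BORA tumours, against 6.91, 12.19, 12.24 and 12.94 in EV tumours, the 6.91 being EV replicate 1. Its difference was -0.68 ± 1.14 over 8 arrays (adjusted p = 0.803), with overlap, and only without EV replicate 1 was it called, at -2.07 ± 0.31 (adjusted p = 0.0194). PAX8, a transcription factor of ovarian carcinoma, had 13.90, 13.86, 14.32 and 14.04 in BORA tumours, against 12.03, 13.07, 12.95 and 13.68 in EV tumours, without overlap. Its difference of 1.10 ± 0.31 over 8 arrays and 0.79 ± 0.21 over 7 was not called. MUC1 differed by 1.59 and 1.32, with overlap, and of the 9 carcinoma markers 6 had a difference above 0 and 3 below over 8 arrays. By whole lists, endothelial markers averaged 5.49 to 5.91 in BORA tumours, with 1 or 2 of 7 above background, and 5.19 to 5.80 in EV tumours, with 0 of 7. Leukocyte markers averaged 6.82 to 7.23 in BORA tumours, 6.74 in EV replicate 1 and 7.43 to 8.03 in the other EV tumours. Fibroblast markers averaged 7.99 to 8.37 in BORA tumours and 7.49 to 8.33 in all EV tumours, and liver markers 5.58 to 5.77 in BORA tumours and 5.83 to 6.28 in EV tumours, with 0 genes of either list called. The part of these cell types in the SREBF1 difference was not tested, and in such tumours fewer cells of a type and less RNA per cell cannot be told apart.

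SREBF2 had 12.15, 11.70, 11.53 and 11.77 in BORA tumours, against 11.86, 11.68, 11.36 and 11.07 in EV tumours. The groups overlapped. The difference was 0.29 ± 0.21 over 8 arrays and 0.42 ± 0.20 over 7, with adjusted p-values of 0.536 and 0.365. SCAP, the SREBP escort, differed by 0.20 and 0.19, with its 8 signals between 9.56 and 10.05. INSIG1 had 7.41, 8.06, 8.24 and 8.08 in BORA tumours, against 6.82, 7.52, 7.58 and 7.72 in EV tumours. All 4 EV tumours and 2 of the BORA tumours were below background for INSIG1, so the difference in signal of 0.54 (0.34 over 7 arrays) is not given as a ratio. STARD4, which moves cholesterol between membranes, differed by 0.18 over 8 arrays and 0.22 over 7, between signals of 9.14 and 10.55. All 5 genes of sterol sensing and transport thus had a difference above 0 in both comparisons and under quantile normalization and median centring. STARD4 was the 1 of them that turned in any alternative, to -0.11 over 8 arrays and -0.20 over 7 without EV replicate 3.

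The 8 genes of the mevalonate steps showed no common size of difference. ACAT2, which joins acetyl-CoA units, had 9.61, 9.56, 9.31 and 9.27 in BORA tumours, against 7.19, 8.98, 8.13 and 9.21 in EV tumours. The groups did not overlap, but the margin between BORA replicate 4 and EV replicate 4 was narrow, and the lowest value, that of EV replicate 1, was below background. The difference was 1.06 ± 0.39 over 8 arrays and 0.66 ± 0.25 over 7, with adjusted p-values of 0.282 and 0.240. HMGCS1, the enzyme that makes HMG-CoA and a standard SREBP target, had 11.31, 11.62, 10.88 and 11.49 in BORA tumours, against 11.15, 11.55, 10.84 and 11.58 in EV tumours. The means of HMGCS1 were 11.32 ± 0.32 and 11.28 ± 0.35 (SD, n = 4 each), and the interval of its difference was -0.46 to 0.54. FDPS, which makes farnesyl pyrophosphate, had 10.86, 10.67, 10.50 and 10.95 in BORA tumours, against 9.18, 10.36, 10.19 and 10.62 in EV tumours. EV replicate 1 was lowest, and the difference of 0.66 ± 0.29 over 8 arrays was 0.36 ± 0.18 without it, with adjusted p-values of 0.338 and 0.381. MVK, mevalonate kinase, had 7.57, 7.90, 7.50 and 7.91 in BORA tumours, against 8.32, 7.44, 7.10 and 7.47 in EV tumours, and was above background in 1 tumour of each group. Here EV replicate 1 was the highest of all 8, and the difference was 0.14 with it and 0.38 without it, neither called. The isomerase IDI1 differed by 0.19 and 0.07, and the geranylgeranyl synthase GGPS1 by -0.04 and -0.004. PMVK and MVD, the next enzymes after MVK, were below background in every tumour, with differences of 0.19 and 0.18 over 8 arrays and 0.20 and 0.01 over 7.

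From squalene to cholesterol, 7 of 10 measured genes had a difference above 0 over 8 arrays and 6 of 10 over 7, and 0 were called. SQLE, which oxidises squalene in a rate-limiting step, had 10.12, 10.72, 10.29 and 9.97 in BORA tumours, against 10.06, 10.88, 9.41 and 10.22 in EV tumours. The tumours of both groups were interleaved, with a difference of 0.14 ± 0.30 over 8 arrays and 0.11 ± 0.31 over 7. LSS, which closes oxidised squalene into lanosterol, had 8.53, 8.15, 8.47 and 8.34 in BORA tumours, against 9.26, 8.84, 8.90 and 8.55 in EV tumours. All BORA tumours lay below all EV tumours, with BORA replicate 1 only just below EV replicate 4. The difference in LSS was -0.52 ± 0.18 over 8 arrays and -0.39 ± 0.17 over 7, with adjusted p-values of 0.266 and 0.311. HSD17B7, a sterol ketone reductase, had 7.66, 8.24, 7.57 and 8.24 in BORA tumours, against 7.03, 7.47, 6.86 and 7.29 in EV tumours. The groups did not overlap. All EV tumours and 2 of the 4 BORA tumours were below background, so no ratio is given, and the difference in signal was 0.77 ± 0.22 over 8 arrays and 0.72 ± 0.23 over 7 (adjusted p = 0.199 and 0.176). DHCR7, the reductase that makes cholesterol in a last step, had 10.54, 9.76, 9.36 and 9.52 in BORA tumours, against 8.43, 9.32, 9.24 and 9.48 in EV tumours. BORA replicate 1 was highest and EV replicate 1 lowest, and the other 6 lay between 9.24 and 9.76. The difference in DHCR7 was 0.67 ± 0.30 over 8 arrays and 0.44 ± 0.26 over 7. Of the rest, NSDHL, which takes part in removing methyl groups from the sterol ring, differed by 0.25 and 0.41, and the isomerase EBP by -0.43 and -0.24. CYP51A1 and MSMO1, which demethylate lanosterol, differed by 0.12 and 0.11 over 8 arrays and by 0.03 and -0.03 over 7. TM7SF2, a sterol reductase, and SC5D, a desaturase, differed by -0.11 and 0.14 over 8 arrays and by -0.29 and 0.02 over 7.

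**Figure D2:**
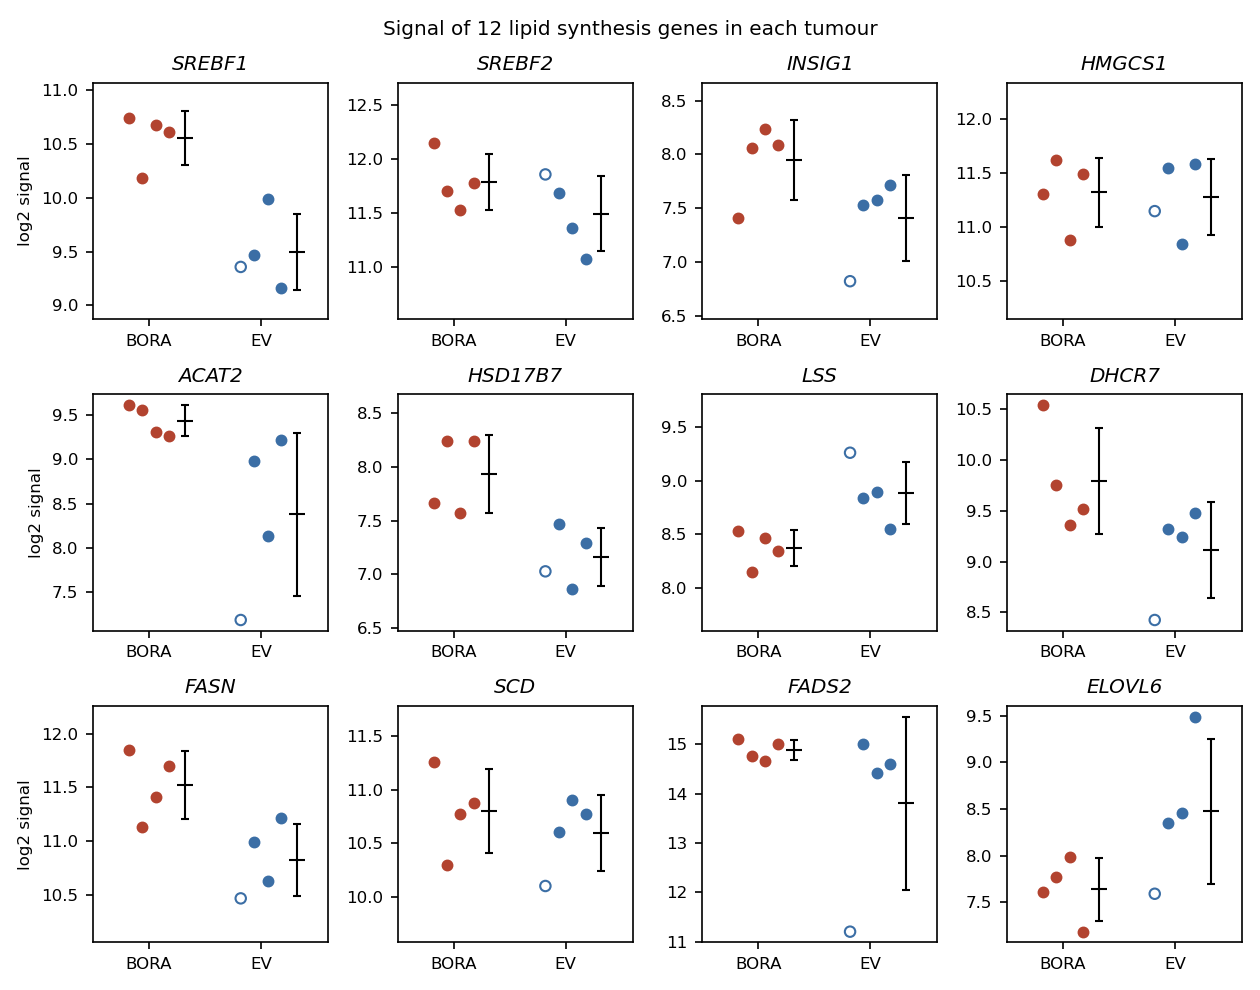
Log2 signal of 12 genes in each tumour, 1 panel a gene with its own vertical axis; points are tumours (4 BORA, left, and 4 EV, right, EV replicate 1 open), and bars show the mean and SD of each group of 4. BORA and EV tumours do not overlap for SREBF1, ACAT2, HSD17B7 and LSS, and the open point is far below the rest for FADS2.

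On the supply side of fatty acid synthesis, ACLY, which makes cytosolic acetyl-CoA from citrate, had 13.12, 13.09, 13.51 and 13.14 in BORA tumours, against 11.82, 13.19, 13.02 and 13.55 in EV tumours. EV replicate 1 was 1.20 below the next lowest array. The difference in ACLY was 0.32 ± 0.33 over 8 arrays and -0.04 ± 0.19 over 7. ME1, the malic enzyme that supplies NADPH, differed by 0.10 and -0.02, with signals between 9.14 and 9.95. ACSS2, which makes acetyl-CoA from acetate, was below background in every tumour, with differences of -0.07 and -0.04.

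Steps to palmitate did not differ in 1 direction. FASN, fatty acid synthase, had 11.85, 11.13, 11.41 and 11.70 in BORA tumours, against 10.47, 10.99, 10.63 and 11.21 in EV tumours. BORA replicate 2 lay below EV replicate 4, and the other 3 BORA tumours lay above all EV tumours. The difference in FASN was 0.70 ± 0.22 over 8 arrays (a 1.62-fold ratio) and 0.58 ± 0.22 over 7 (1.49-fold), with adjusted p-values of 0.229 and 0.240. ACACA, the cytosolic acetyl-CoA carboxylase, makes the malonyl-CoA that FASN uses. It had 11.31, 10.32, 10.83 and 10.85 in BORA tumours, against 10.80, 10.94, 11.29 and 11.33 in EV tumours, which overlapped. Its difference was -0.26 ± 0.23 over 8 arrays and -0.36 ± 0.23 over 7, with adjusted p-values of 0.608 and 0.494. ACACB, the mitochondrial carboxylase, was below background in every tumour, with 6.43, 5.71, 6.88 and 5.86 in BORA tumours, against 5.97, 6.02, 5.93 and 5.61 in EV tumours. THRSP, a lipogenic cofactor of liver and fat, was also below background in every tumour, at 3.64 to 4.61.

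Among the desaturases and elongases, ELOVL6, which lengthens palmitate to stearate, had 7.61, 7.77, 7.98 and 7.19 in BORA tumours, against 7.59, 8.35, 8.46 and 9.49 in EV tumours. It was above background in 2 BORA tumours and in EV replicates 2 to 4. EV replicate 1 lay within the BORA range, and the other 3 EV tumours lay above it. The difference in ELOVL6 was -0.84 ± 0.36 over 8 arrays and -1.13 ± 0.28 over 7, with adjusted p-values of 0.328 and 0.107. It was -0.50 over 8 arrays when EV replicate 4, the tumour at 9.49, was left out. FADS2, a desaturase of polyunsaturated chains, had 15.11, 14.76, 14.66 and 15.01 in BORA tumours, against 11.20, 15.00, 14.42 and 14.60 in EV tumours. EV replicate 1 was 3.22 below the next lowest array. The difference in FADS2 was 1.07 ± 0.71 with EV replicate 1 and 0.21 ± 0.19 without it. SCD, which makes oleate, had 11.25, 10.30, 10.77 and 10.88 in BORA tumours, against 10.10, 10.61, 10.90 and 10.77 in EV tumours, a difference of 0.21 ± 0.24 over 8 arrays and 0.04 ± 0.22 over 7. SCD5, a second stearoyl-CoA desaturase, and ELOVL5, an elongase of polyunsaturated chains, differed by 0.13 and 0.28 over 8 arrays and by 0.02 and 0.04 over 7. ACSL1, which activates fatty acids as acyl-CoA, differed by 0.18 and 0.03.

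**Figure D3:**
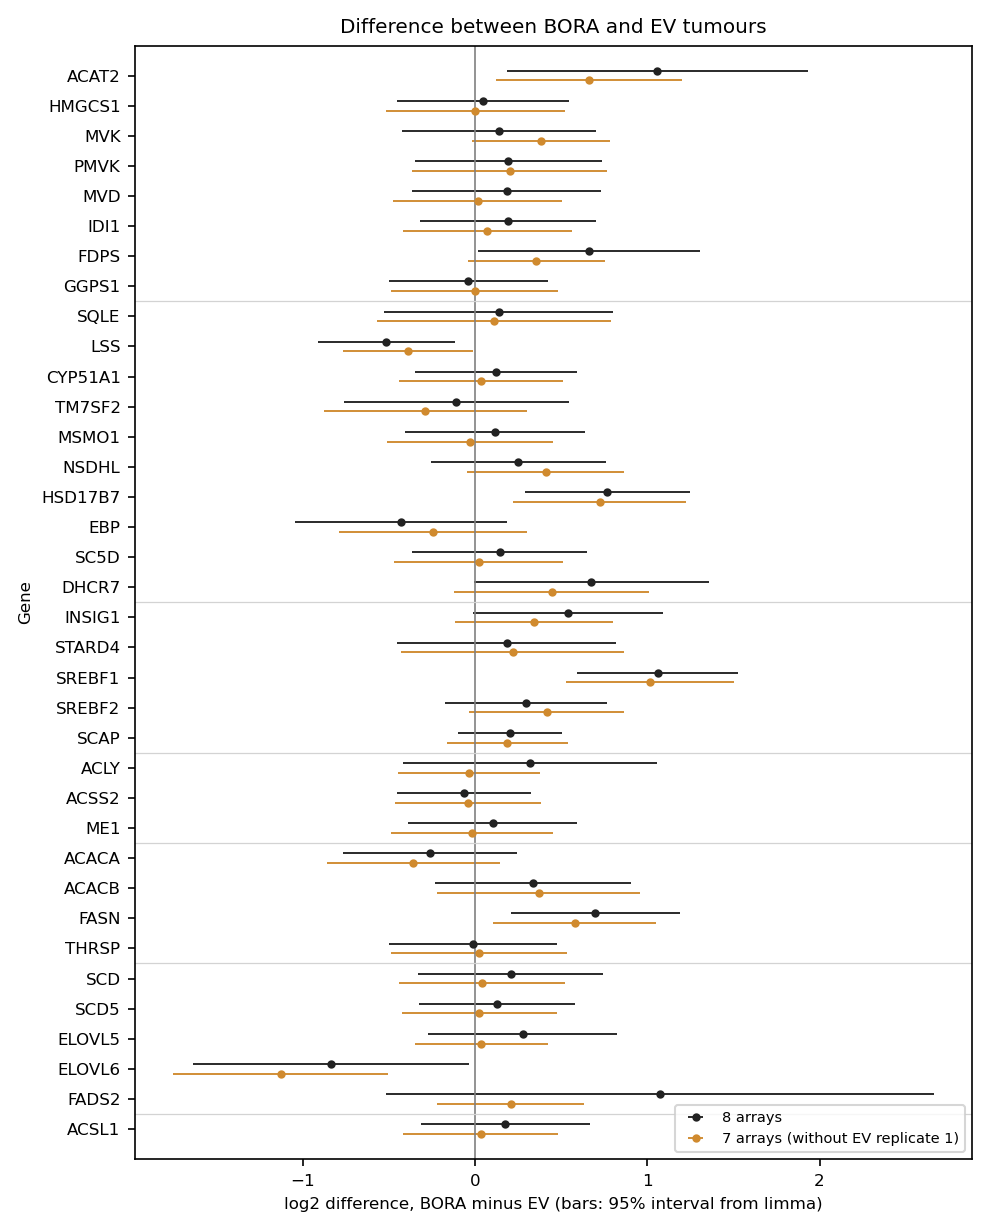
Difference in log2 signal, BORA minus EV, of the 36 genes in pathway order, with the 95% interval from limma over 8 arrays (black) and over the 7 arrays without EV replicate 1 (orange). Most intervals cross 0; those of SREBF1, HSD17B7, ACAT2 and FASN lie above 0 and those of LSS and ELOVL6 below 0 in both comparisons, and the FADS2 interval is much narrower over 7 arrays.

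Set side by side, the sterol branch had a median difference of 0.14 over 8 arrays and 0.05 over 7, and the fatty acid branch 0.18 over 8 and 0.02 over 7. Under quantile normalization the 7-array medians were -0.03 for the sterol branch and -0.06 for the fatty acid branch, and under median centring 0.002 and -0.03, so neither has a settled sign. The sensing genes had a median of 0.29 over 8 arrays and 0.34 over 7. The median of all clusters was -0.03 in both comparisons. Clusters averaging above background had a median of 0.11 over 8 arrays and 0.09 over 7, which quantile normalization brought to 0.003 and -0.02. Differences above 0 were counted in 28 of 36 genes over 8 arrays (77.8%) and in 25 over 7 (69.4%). The shares were 64.6% and 62.0% of clusters above background, and 46.6% and 46.1% of all clusters. Under quantile normalization the shares of the 36 were 75.0% and 44.4%, against 50.4% and 47.6% of clusters above background and 48.1% and 47.7% of all clusters. Under median centring they were 75.0% and 47.2%, against 57.6% and 55.1% of clusters above background and 39.9% and 39.7% of all clusters. The majority above 0 over 7 arrays was thus not kept under either scaling. The wide ranges within each branch, -0.52 to 1.06 for sterol enzymes and -0.84 to 1.07 for fatty acid genes over 8 arrays, exceeded the gap between their medians.

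A branch score, the mean over its genes of the log2 signal minus the mean of that gene over the 8 arrays, shows the branches by tumour. Sterol scores were 0.19, 0.19, -0.08 and 0.11 in BORA tumours, against -0.28, 0.08, -0.20 and 0.01 in EV tumours. BORA replicate 3 and EV replicate 2 crossed, so the groups overlapped. Fatty acid scores were 0.24, -0.06, 0.12 and 0.03 in BORA tumours, against -0.64, 0.08, -0.04 and 0.28 in EV tumours. The lowest and the highest tumour were both EV tumours. Sensing scores were 0.26, 0.20, 0.19 and 0.26 in BORA tumours, against -0.29, -0.11, -0.27 and -0.24 in EV tumours, without overlap. Over 7 arrays the group means differed by 0.14 for sterol, -0.02 for fatty acid and 0.44 for sensing genes. The sensing score averages 5 genes, of which SREBF1 had the largest difference, and no test was made of it because the genes were chosen with earlier results known.

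**Figure D4:**
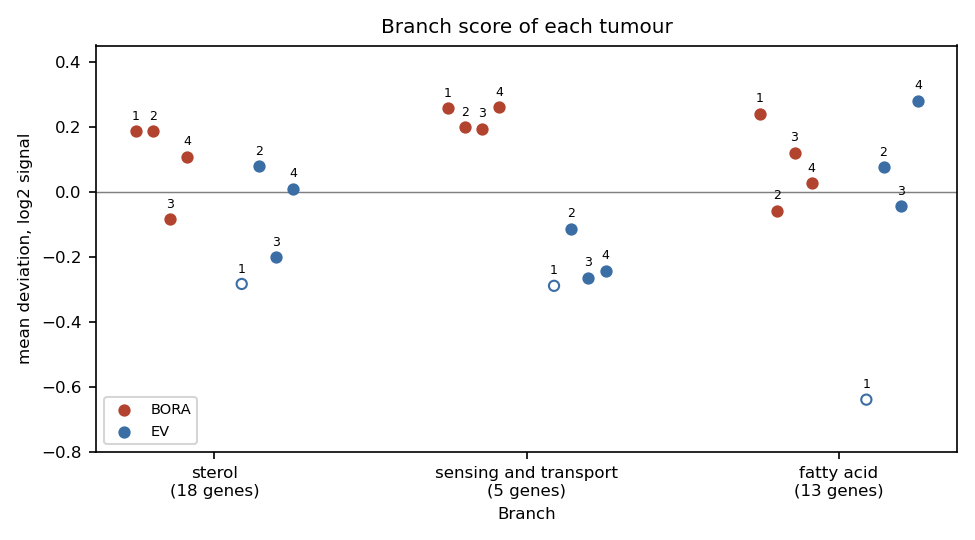
Branch score of each tumour (mean deviation of log2 signal from the mean of each gene over 8 arrays) for 18 sterol, 5 sensing and 13 fatty acid genes; numbers are replicates, BORA left and EV right, EV replicate 1 open. BORA tumours sit above EV tumours for the sensing genes and overlap them in the other branches, where EV replicate 1 lies lowest.

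Among BORA tumours, the one most often lowest was not the same for sterol and fatty acid genes. The BORA tumours named here are those with the highest counts. Genes of a branch were read in the same tumours and are not replicates, and these counts were not tested. BORA replicate 3 was the lowest BORA tumour in 12 of 18 sterol enzymes (66.7%), against 26.0% of all clusters and 28.2% of those above background, and in 4 of 13 fatty acid genes. BORA replicate 2 was lowest in 6 of 13 fatty acid genes (46.2%), against 24.4% of all clusters and 20.8% of those above background, and in 2 of 18 sterol enzymes. In the EV group, replicate 1 was lowest in 10 of 13 fatty acid genes (76.9%) and in 8 of 18 sterol enzymes (44.4%), against 34.4% of all clusters and 42.1% of clusters above background. The sterol share was thus near that of clusters above background. EV replicate 3 was lowest in another 7 sterol enzymes (38.9%), against 22.7% of all clusters and 19.8% of those above background. EV replicate 1 lay below all 7 other arrays in 16 of 36 genes (44.4%), against 22.2% of all clusters, with 8 of these in the fatty acid branch, 7 among sterol enzymes and INSIG1. It lay above all others in 3 genes, MVK, LSS and EBP (8.33%), against 20.6%. Neither share was counted among clusters averaging above background, as 28 of the 36 genes do. The squamous and mitosis values of EV replicate 1 given above come from the same 1 tumour as these counts, and their part in the counts was not tested.

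Neighbouring lipid pathways, in 7 lists with 70 measured genes, had 0 genes called in either comparison. At an unadjusted p under 0.05, 8 of the 70 were higher and 2 lower over 8 arrays, against the 7.37% and 7.17% of all clusters given above. Over 7 arrays 7 were higher and 4 lower, against 7.7% and 7.62%. Of the 7217 clusters averaging above background, 829 were higher and 200 lower over 8 arrays, and 853 and 255 over 7. The 70 were not split by background. The 4 measured SREBP processing partners differed by 0.08 to 0.30 over 8 arrays. The smallest p was that of RNF139 (0.22 over 8 arrays, 0.19 over 7) and UBXN8 (0.30 and 0.22), both ubiquitin-pathway proteins of the endoplasmic reticulum membrane. In the list of sterol efflux, transport and esterification, 5 of 10 genes had a difference above 0 in both comparisons. NR1H3, the oxysterol receptor LXR alpha, which drives SREBF1 in liver, had 6.88, 7.25, 6.91 and 7.47 in BORA tumours, against 8.22, 7.73, 7.66 and 7.74 in EV tumours. NR1H3 was below background in all 8, and its groups did not overlap. Its difference was -0.71 ± 0.19 over 8 arrays and -0.58 ± 0.18 over 7, with adjusted p-values of 0.191 and 0.179. NPC1, which exports cholesterol from lysosomes, had 11.55, 11.64, 11.54 and 11.49 in BORA tumours, against 11.13, 11.29, 11.11 and 11.34 in EV tumours, without overlap. The difference in NPC1 was 0.34 ± 0.13 over 8 arrays and 0.31 ± 0.15 over 7, with adjusted p-values of 0.290 and 0.362. LIPA, the lysosomal lipase, differed by 0.54 over 8 arrays and by 0.79 over 7, the second with an adjusted p of 0.122.

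Isoprenoid users, the prenylation and ubiquinone genes that draw on farnesyl pyrophosphate, had a median difference over 10 genes of 0.17 over 8 arrays and 0.12 over 7. PDSS2, a subunit of the ubiquinone side-chain synthase, differed by 0.53 over 8 arrays and 0.55 over 7, at signals below background. NUS1 and DHDDS, which together make dolichol precursors, differed by 0.26 and 0.17 over 8 arrays and by 0.07 and 0.28 over 7. Glycerolipid and lipid droplet genes had a median over 13 genes of 0.18 over 8 arrays and 0.08 over 7. AGPAT1, which makes phosphatidic acid, had 11.02, 10.37, 10.43 and 10.39 in BORA tumours, against 9.46, 9.56, 9.82 and 9.83 in EV tumours, without overlap. Its difference was 0.88 ± 0.19 over 8 arrays and 0.81 ± 0.20 over 7, with adjusted p-values of 0.135 and 0.101. PNPLA2, the lipase that opens triglyceride stores, had 7.54, 6.67, 7.71 and 7.08 in BORA tumours, against 6.09, 6.12, 6.58 and 5.92 in EV tumours, with only 1 BORA tumour above background. Its difference in signal was 1.08 over 8 arrays and 1.05 over 7, with adjusted p-values of 0.150 and 0.106. PLIN2, a lipid droplet coat protein named after its values were seen, had 5.43, 8.21, 8.21 and 7.69 in BORA tumours, against 5.18, 6.64, 5.51 and 5.58 in EV tumours. BORA replicate 1 lay within the EV range for PLIN2, and 2 BORA tumours and all EV tumours were below background. The difference in PLIN2 signal was 1.66 ± 0.59 over 8 arrays and 1.47 ± 0.58 over 7, with adjusted p-values of 0.277 and 0.262.

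Fatty acid uptake and binding genes had the lowest median of the 7 lists, -0.38 over 8 arrays and -0.28 over 7, with 1 of 8 genes above 0, against 46.6% and 46.1% of all clusters. Of the 8 genes, FABP3, SLC27A1, SLC27A3 and LPL were below background in all 8 tumours, and CD36 and FABP4 in all but EV replicate 1. SLC27A4 and SLC27A3, fatty acid transporters, differed by -0.36 and -0.40 over 8 arrays and by -0.24 and -0.30 over 7. FABP3 and FABP4, which bind fatty acids in the cytosol, differed by -0.19 and -2.41 over 8 arrays and by -0.34 and -0.30 over 7. Fatty acid oxidation genes had a median over 14 genes of 0.07 over 8 arrays and 0.04 over 7. ACADVL, which starts the oxidation of long chains, had 12.38, 12.39, 12.29 and 12.12 in BORA tumours, against 12.08, 11.79, 11.41 and 11.74 in EV tumours. The groups did not overlap, and the difference was 0.54 ± 0.17 over 8 arrays and 0.65 ± 0.17 over 7 (adjusted p = 0.228 and 0.119). SLC25A20, the mitochondrial carnitine carrier, and ACAA2, a thiolase, were below background and differed by -0.34 and -0.43 over 8 arrays and by -0.44 and -0.64 over 7. Other lipogenic regulators and AMPK subunits had a median over 11 genes of -0.001 over 8 arrays and -0.02 over 7. The smallest p was that of the transcription factors USF1 (0.44 over 8 arrays, 0.36 over 7) and CEBPA (-0.36 and -0.40), of which CEBPA was below background in every tumour.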

How the data were processed

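RNA of 8 tumours, 4 BORA and 4 EV by the sample descriptions, was read on 1 array each. The deposited table holds 1 value per transcript cluster and array, which was taken as log2 from its range, since no label states a log base. Per the submitters' processing notes, the authors made these values with Affymetrix Expression Console. Which version, background correction and normalization they chose is not given in the sources used here. By the design text the array was Human Gene 1.0 ST, but the identifiers of the rows are those of another human array from Affymetrix. No array shared more than 0.0113% of its values with another.

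The deposited log2 values were used without further normalization. All 17709 clusters with 1 symbol were fitted with limma 3.58.1 (lmFit and eBayes in R 4.3.3, without covariates) for BORA minus EV. Benjamini-Hochberg adjusted p-values under 0.05 counted as called, over 8 arrays and over 7 without EV replicate 1. The steps were tested on simulated data, which held no outlying array such as EV replicate 1. In these, 154 clusters were called over 8 arrays and 166 over 7, against 18 and 91 in the tumours. More calls loosen the Benjamini-Hochberg cutoff, so the shares called below may be higher than in the tumours. Of genes given a log2 change of 1, 38.8% were called over 8 arrays and 40.3% over 7. For a change of 2 these shares were 85.1% and 98.5%. A change of 1 in a single gene can thus be missed. Precision is limited by how few arrays there are.

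The genes, their branches and the 16 pathway and marker lists (137 of 153 genes measured) were chosen with earlier results of these data known. Values by tumour are given for genes without overlap, for the 4 sterol, 4 fatty acid and 2 sensing genes of smallest p in each comparison, and for 12 key steps; pathway lists are given by their 2 genes of smallest p. Alternatives were quantile normalization, median centring, a block for the replicate number, an intensity trend with robust fitting, array weights, 2 filters on dim clusters, all rows except controls, no moderation, 2 other thresholds, a gene's mean over its clusters, and dropping each array in turn. Promoter windows came from RefSeq. No batch could be tested, as the labels name none.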

Additional observations from a re-analysis of the deposited data

Results flagged for a closer look

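In a few groups 1 tumour lay far from the other 3 (Dixon's test at 95%). 212 groups of 4 were checked, of which chance alone flags about 1 in 20, and 17 were found. Among the 36 genes, ACLY in BORA replicate 3 was 13.51, against 13.09 to 13.14 in the other BORA tumours. FADS2 in EV replicate 1 was 11.20, while EV replicates 2 to 4 had 14.42 to 15.00.

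The other 15 were in neighbouring lipid pathways. EV replicate 1 stood apart in 6 of them. There the fatty acid carriers CD36, FABP4 and FABP5 had 12.32, 12.41 and 17.14, and in the other EV tumours CD36 had 4.72 to 5.21, FABP4 3.78 to 4.25 and FABP5 10.76 to 11.56. In the same tumour the sterol exporter ABCG1 had 6.53, still below background, the receptor NR1H3 had 8.22, and the dolichol gene NUS1 had 11.55, against 12.25 to 12.29 in the other EV tumours. EV replicate 4 stood apart for FNTB at 8.01 and PDSS1 at 8.43, and EV replicate 3 for PDSS2 at 4.44. BORA replicate 1 stood apart for AGPAT1 at 11.02, against 10.37 to 10.43 in the other BORA tumours, and for HADHA at 12.01. BORA replicate 2 stood apart for ETFDH at 7.74, and BORA replicate 4 for HADHB at 10.46. BORA replicate 3 stood apart for FABP4 at 3.79 and CEBPA at 4.63, both below background. FABP4 was counted in both groups.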

How the results depend on the processing

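Of 1380 results of single genes under the alternatives, 1378 stayed on their side of the threshold. The exceptions were both SREBF1 over 7 arrays, with a difference of 1.02 and an adjusted p of 0.0801 where the threshold was 0.10, and 1.24 and 0.0434 without EV replicate 3. Over all its alternatives the adjusted p of SREBF1 was 0.0720 to 0.303 over 8 arrays and 0.0434 to 0.297 over 7. The number of genes called higher over 7 arrays was 1 at a threshold of 0.10 and 0 to 1 on leaving out an array. That gene was SREBF1 each time. The share of all clusters called under these settings was not counted, so these counts cannot be read against it. Without EV replicate 4, 9 genes had no overlap, against 4 to 9 over all single arrays left out and 3 under quantile normalization or median centring. The share of all clusters without overlap was not counted under these settings. Smaller groups separate more readily, so a higher count on leaving out an array is not read as a result about these genes. The sensing median was 0.18 over 8 arrays and 0.27 over 7 under quantile normalization, and 0.18 to 0.38 over 8 arrays and 0.29 to 0.40 over 7 on leaving out an array. With the replicate number as a block, 0 genes were called in either comparison, and the sterol and fatty acid medians over 7 arrays were 0.11 and -0.01. These 7-array medians equal those without BORA replicate 1, which has no same-numbered partner there and so adds nothing to the blocked difference. Deviations of same-numbered tumours from their group means had correlations of -0.11, 0.04, 0.07 and -0.02. Between tumours of unlike number they were -0.18 to 0.17. With 4 tumours a group, these values cannot settle whether tumours of equal number share anything. The sign of the difference turned in 112 results, and 22 genes over 8 arrays and 17 over 7 never turned. A filter at the background level left 28 genes, and signals near background limit what ACACB, ACSS2, HSD17B7, INSIG1, MVD, MVK, PMVK and THRSP can show. The mean of all clusters gave the same values because each gene had 1 cluster. Beyond the block over 7 arrays, the cause of these changes was not tested.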
